A study of Homo sapiens with 4 samples.

Results

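The DEAD box (DDX) and DEAH box (DHX) RNA helicase genes were examined for binding of BRD8 at their ends in a pair of human colorectal cancer cell lines. Members were all protein-coding genes of chromosomes 1 to 22 and X whose symbol is DDX or DHX followed by a number and at most 1 letter. This gave 53 of 19974 protein-coding genes, 37 DDX and 16 DHX. BRD8 is a bromodomain subunit of the NuA4/TIP60 histone acetyltransferase complex. The study mapped it by chromatin immunoprecipitation sequencing (ChIP-seq) in HCT116 and SW480, established lines derived from colorectal tumours. HCT116 grew in McCoy's 5A medium and SW480 in Leibovitz's L-15 medium, both with fetal bovine serum, and the labels name no drug, genotype change or time point for either. Each line had 1 BRD8 library, from chromatin cut with micrococcal nuclease and a polyclonal antibody, and 1 input library, so a difference between the lines has no replicate check and line, culture medium and library cannot be told apart.

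The deposited lists held 22303 peaks in HCT116 and 12874 in SW480, with median widths of 596 and 394 bp. Each peak has a summit, a fold enrichment of ChIP signal over local background at that summit, and a −log10 q. These are the authors' values and are used here to describe and rank peaks within a list. A gene was counted as bound in a line when a summit lay within 1 kb of either gene end, and its values are those of the gene-end peak of highest fold. The lists hold only peaks past a q threshold of 0.05, so a gene without a listed peak may still carry weaker signal, and the lists give no read totals. Among 9 colorectal epithelial markers, HCT116 had a gene-end peak at 4 (CDX2, EPCAM, KRT19 and KRT8) and SW480 at 0. Of 8 leukocyte, fibroblast and endothelial markers, 0 were bound in either line. The shares over all coding genes were 44.0% for HCT116 and 22.1% for SW480. The HCT116 count of epithelial markers was thus close to the share of all genes and does not set these markers apart. Peaks are not expression, so these counts do not check cell identity.

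DDX and DHX proteins use ATP to bind, remodel or unwind RNA and RNA-protein complexes, and are named after the amino acids of a conserved motif in the helicase core. They act at nearly every step in the life of an RNA: ribosome assembly in the nucleolus, splicing, export through the nuclear pore, translation, decay, mitochondrial RNA maturation and the sensing of foreign nucleic acids. Many are needed in all dividing cells, whereas a few are largely restricted to germ cells.

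The promoters of the 3 DDX genes and the 1 DHX gene of highest fold in HCT116, and of a pair of unbound genes, are shown to make the sequence features described further on visible. Each run is 280 bases, 5′ to 3′ on the strand of the gene, from 250 bases before the RefSeq transcript start to 30 bases from it (GRCh38.p14). Capitals mark letters that match one of 9 short motifs on either strand, listed with the promoter results. DDX42 and DDX21 hold the summit of both lines within the printed run, DDX31 and DHX9 were bound just inside the gene, and DDX4 and DHX16 were bound in neither line. The last pair was chosen after the values were seen.
DDX42: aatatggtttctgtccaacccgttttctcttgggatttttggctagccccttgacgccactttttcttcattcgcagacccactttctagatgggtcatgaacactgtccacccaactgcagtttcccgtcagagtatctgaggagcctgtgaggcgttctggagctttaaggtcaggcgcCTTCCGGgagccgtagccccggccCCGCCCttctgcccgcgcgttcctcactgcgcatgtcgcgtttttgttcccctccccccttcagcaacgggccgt
DDX21: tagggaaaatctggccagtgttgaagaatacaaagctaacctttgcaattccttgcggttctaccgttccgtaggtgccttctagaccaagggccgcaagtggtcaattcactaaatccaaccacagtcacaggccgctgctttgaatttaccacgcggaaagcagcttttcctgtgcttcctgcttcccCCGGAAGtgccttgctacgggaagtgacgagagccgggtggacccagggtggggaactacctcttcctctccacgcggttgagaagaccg
DDX31: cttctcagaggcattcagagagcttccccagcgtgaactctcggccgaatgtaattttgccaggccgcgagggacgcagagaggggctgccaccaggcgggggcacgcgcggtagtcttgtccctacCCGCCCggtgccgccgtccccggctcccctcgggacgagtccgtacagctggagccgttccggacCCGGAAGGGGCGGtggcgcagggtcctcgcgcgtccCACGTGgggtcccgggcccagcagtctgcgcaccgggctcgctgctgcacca
DHX9: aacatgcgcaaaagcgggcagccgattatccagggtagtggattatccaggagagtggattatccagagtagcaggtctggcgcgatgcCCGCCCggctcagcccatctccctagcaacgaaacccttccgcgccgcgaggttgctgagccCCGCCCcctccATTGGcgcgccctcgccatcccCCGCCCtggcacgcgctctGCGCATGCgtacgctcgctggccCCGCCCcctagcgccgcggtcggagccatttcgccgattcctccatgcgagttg
DDX4: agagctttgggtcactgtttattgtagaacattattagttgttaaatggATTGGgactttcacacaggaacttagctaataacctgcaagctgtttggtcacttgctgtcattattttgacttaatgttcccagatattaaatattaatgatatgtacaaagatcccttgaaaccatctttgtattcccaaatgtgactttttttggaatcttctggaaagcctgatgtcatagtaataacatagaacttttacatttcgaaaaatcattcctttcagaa
DHX16: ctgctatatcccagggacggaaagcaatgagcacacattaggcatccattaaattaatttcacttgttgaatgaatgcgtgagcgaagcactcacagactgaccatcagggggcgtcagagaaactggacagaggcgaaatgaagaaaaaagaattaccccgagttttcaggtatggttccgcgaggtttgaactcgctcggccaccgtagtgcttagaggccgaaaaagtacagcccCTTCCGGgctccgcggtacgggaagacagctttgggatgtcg
The runs lie at chr17:63773920-63774199 on the + strand (DDX42), chr10:68955920-68956199 on the + strand (DDX21), chr9:132669954-132670233 on the − strand (DDX31), chr1:182839097-182839376 on the + strand (DHX9), chr5:55766635-55766914 on the + strand (DDX4) and chr6:30672977-30673256 on the − strand (DHX16). DDX42, DDX21, DDX31 and DHX16 hold the ETS letters CCGGAAG or their reverse complement, beginning at positions -69, -60, -58 and -12 from the transcript start. DHX9 has GC-box (SP), CCAAT (NF-Y) and NRF1 matches. The DDX4 run is AT-rich, with a GC content of 33.3% over the promoter. Its transcript start, chr5:55766885, lies inside the gene, far from the 5′ gene end at chr5:55738061. The run therefore does not show the gene end at which DDX4 was counted as unbound.

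BRD8 peaks lay at the ends of most of these genes. In HCT116 44 of 53 (83.0%) were bound, against 44.0% of all protein-coding genes. In SW480 32 of 53 (60.4%) were bound, against 22.1%. All 32 were also bound in HCT116, so 60.4% were bound in both lines, against 20.3% of all genes. Another 12 (22.6%) were bound in HCT116 alone, against 23.7%. The count bound in SW480 alone was 0 of 53, which allows a share of up to 5.66% (3 counts, counting error only), against 1.81%. Of the helicase genes bound in HCT116, 72.7% were bound in SW480, against 46.1% of all genes bound in HCT116. Shares are described without a test, since genes of 1 library are not replicates.

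**Figure D1:**
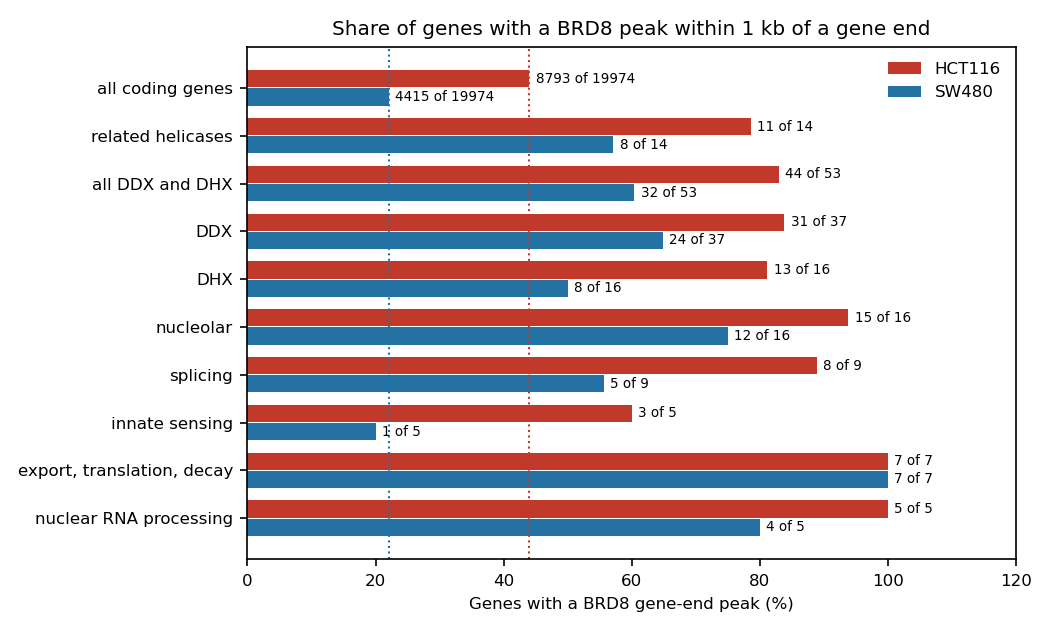
Share of genes (%) with a BRD8 summit within 1 kb of a gene end, by gene list, in HCT116 (red) and SW480 (blue), with counts beside the bars and the shares of all coding genes as dotted lines. Of the lists plotted, only the innate sensing genes in SW480 lie below the dotted line, at 1 of 5 against 22.1%. With 5 genes this count cannot be told from that share. Lists of 4 or fewer genes are not plotted.

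DDX and DHX genes were bound at nearly the same share in HCT116, at 31 of 37 (83.8%) and 13 of 16 (81.2%). In SW480 the counts were 24 of 37 (64.9%) and 8 of 16 (50%), so 7 DDX and 5 DHX genes had a listed peak in HCT116 alone. The median fold of the bound genes was 6.06 for DDX and 6.49 for DHX in HCT116, and 3.59 and 3.46 in SW480. Over all 44 and 32 bound members the medians were 6.15 and 3.59, and over all bound genes 4.87 and 3.40. In HCT116 34 of 44 members lay above the median of all bound genes, and in SW480 17 of 32. Peaks at the members were also wider, with a median of 1453 bp against 1106 bp in HCT116 and 613.5 bp against 536 bp in SW480. Among the 1000 genes of highest −log10 q, 5.01% of all genes by construction of that limit, were 11 of 53 members (20.8%) in HCT116 and 11 in SW480.

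**Figure D2:**
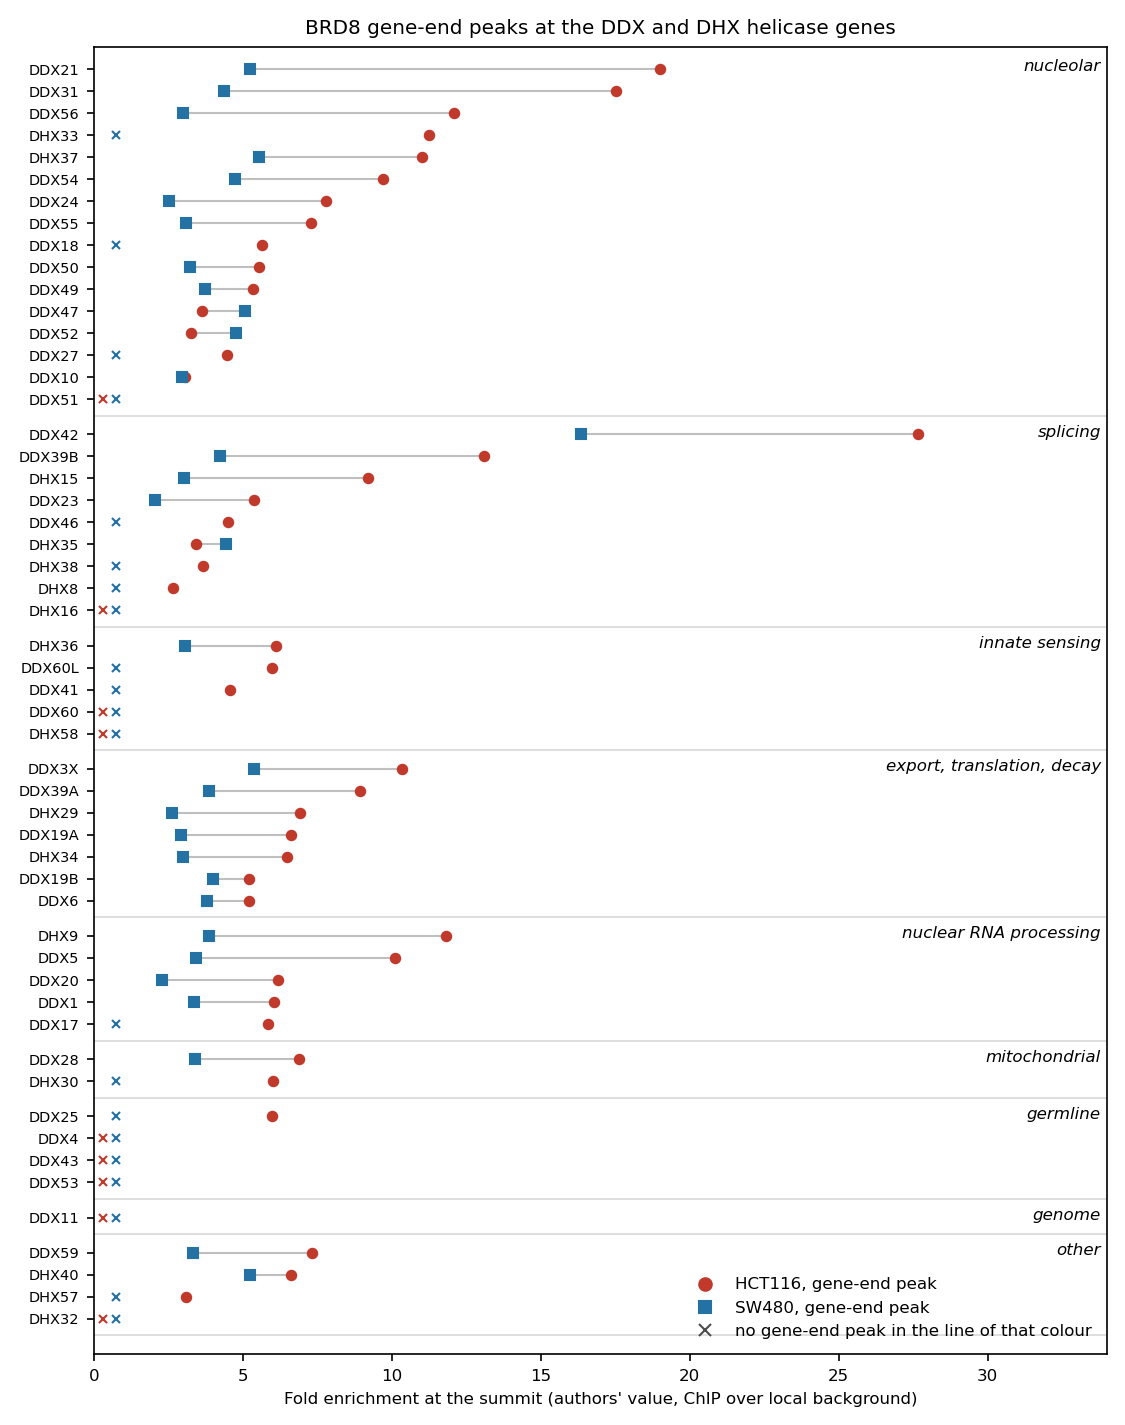
Fold enrichment at the strongest gene-end peak of each of the 53 genes, by functional list, in HCT116 (red circles) and SW480 (blue squares), with crosses for genes without a listed peak in that line. DDX42 lies farthest right in both lines (27.6 and 16.3), and only DDX47, DDX52 and DHX35 have a higher fold in SW480 than in HCT116.

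Nucleolar helicases, which release and remodel rRNA precursors during ribosome assembly, were bound at 15 of 16 genes in HCT116 and 12 of 16 in SW480. The shares over all genes were 44.0% and 22.1%. The median fold was 7.30 in HCT116 and 4.05 in SW480. In each line 6 of the 16 were among the 1000 genes of highest −log10 q, against 5.01% of all genes. DDX21, which takes part in rRNA transcription and processing, had a fold of 19.0 (−log10 q 115) in HCT116, in a peak of 3536 bp at chr10:68954795-68958330. Its SW480 peak at chr10:68955462-68958234 had a fold of 5.25 (−log10 q 30.5). The summits lay at -199 and -204 bp from the 5′ gene end. Its paralogue and chromosomal neighbour DDX50 had folds of 5.54 (−log10 q 12.4) and 3.24 (8.47), with summits at 165 and -386 bp. DDX21 was thus the higher of the pair in both lines, with summits on opposite sides of the start in HCT116.

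DDX31, a helicase of ribosomal subunit assembly, had a fold of 17.5 (−log10 q 85.8) at chr9:132669349-132670482 in HCT116 and 4.37 (21.4) at chr9:132669424-132670412 in SW480. Its summits lay 175 and 124 bp inside the gene, and the same peaks lie within 1 kb of an end of GTF3C4. DDX56, needed for large-subunit assembly, had folds of 12.1 (−log10 q 53.3) and 2.99 (14.9), 96 and 142 bp inside. DHX37, which releases the U3 small nucleolar RNA from the small-subunit precursor, had folds of 11 (42.5) and 5.56 (16.1), 165 and 175 bp inside. DHX37 had the highest fold of the family in SW480 after DDX42, while 7 members stood above it in HCT116. DDX54, a nucleolar protein also known as a corepressor of nuclear receptors, had folds of 9.71 (52.8) and 4.74 (15.6), 309 and 259 bp inside, in peaks near the end of RITA1 too.

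Of the other nucleolar genes bound in both lines, DDX24 had folds of 7.80 (−log10 q 21.8) and 2.54 (4.38), 189 and 184 bp inside. DDX55 had folds of 7.30 (28.6) and 3.08 (7.03), at -156 and -129 bp. DDX49 had folds of 5.33 (14.4) and 3.73 (9.0), at -427 and -484 bp, and its SW480 peak of 227 bp was the narrowest of the family. These values lay above the HCT116 median of all bound genes and on both sides of the SW480 one. DDX47, DDX52 and DDX10 were low in HCT116, at folds of 3.63 (8.36), 3.26 (4.44) and 3.04 (3.90). In SW480 DDX47 reached 5.06 (11.2) and DDX52 4.77 (14.2), while DDX10 had 2.94 (4.79). The DDX47 summits lay 147 and 280 bp inside the gene and those of DDX10 717 and 822 bp inside, in HCT116 and SW480. For DDX52 the strongest peaks of the lines lay at opposite gene ends, 33447 bp apart, and the HCT116 list held a second peak of fold 3.23 (5.73) at the end bound in SW480.

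DHX33, DDX18 and DDX27 were bound in HCT116 alone. DHX33, a helicase linked to rRNA transcription, had a fold of 11.2 (−log10 q 43.8) with its summit 187 bp inside the gene, the highest −log10 q of the 12 members bound in HCT116 alone. The nearest SW480 summit lay 1939 bp from an end of DHX33. DDX18 had a fold of 5.65 (19.8) and DDX27 4.48 (12.9), 130 and 125 bp inside, and the nearest SW480 summits were 214771 and 32095 bp away. DDX51, at chr12:132136594-132144319, was the 1 nucleolar gene without a listed peak in either line, with the nearest summits 45106 bp away in HCT116 and 142569 bp in SW480.

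Splicing helicases, which drive the rearrangements of the spliceosome from assembly to release, were bound at 8 of 9 genes in HCT116 and 5 of 9 in SW480. Over all genes these shares were 44.0% and 22.1%. DDX42, a helicase associated with the U2 small nuclear ribonucleoprotein, carried the strongest gene-end peak of the family in both lines. In HCT116 it had a fold of 27.6 (−log10 q 344) in a region of 4916 bp, chr17:63772297-63777212. Among the 8793 bound genes it ranked 1 by −log10 q and 5 by fold. In SW480 it had a fold of 16.3 (106) at chr17:63773774-63775336, at rank 1 by fold and rank 2 by −log10 q among the 4415 bound genes. Its summits lay 163 and 144 bp inside the outermost gene start, which is -207 and -226 bp from the transcript start used for the printed promoter. CCDC47 has an end within 1 kb of the same summits, so the peak cannot be given to either gene alone.

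DDX39B, which acts in spliceosome assembly and loads export factors on mRNA, had folds of 13.1 (−log10 q 89.7) and 4.23 (18.9), 99 and 115 bp inside the gene. DHX15, which takes the spliceosome apart after splicing, had folds of 9.20 (36.7) and 3.03 (3.38), 127 and 825 bp inside. A SW480 peak nearer to the start of DHX15 had a lower fold of 2.68 and a higher −log10 q of 4.98. DDX23, which acts when the 5′ splice site is handed over during spliceosome activation, had folds of 5.37 (12) and 2.04 (1.54), 229 and 178 bp inside. Its SW480 peak had the lowest −log10 q of the family. DHX35 had folds of 3.44 (6.80) at -477 bp and 4.43 (20.3) at -338 bp, the higher value in SW480.

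DDX46, DHX38 and DHX8 were bound in HCT116 alone, with folds of 4.49 (−log10 q 11.5), 3.67 (7.06) and 2.65 (3.71). DDX46 acts in prespliceosome formation, DHX38 before the second catalytic step and DHX8 in release of the spliced mRNA. Their summits lay at 62, -674 and 145 bp. The DHX8 peak was the weakest of the family in HCT116, and the nearest SW480 summit lay 1149 bp from its end, just outside the limit. DHX16, which activates the spliceosome before the first step, was bound in neither line, with the nearest summits 5634 and 5581 bp from an end of its gene at chr6:30653127-30673006.

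The innate sensing genes take part in recognition of viral or cytosolic nucleic acids. They were bound at 3 of 5 genes in HCT116 and 1 of 5 in SW480, against 44.0% and 22.1% of all genes. Among the 1000 genes of highest −log10 q were 0 of the 5 in either line, against 5.01% of all genes. With 5 genes these counts cannot be told from those shares. The counts of bound genes depended on the list and the distance. With DDX1, DDX3X, DDX21, DHX9 and DHX33 added, 8 of 10 were bound in HCT116 and 5 of 10 in SW480. Within 500 bp of an end 1 of 5 was bound in HCT116, against 34.9% of all genes. DHX36, which also unwinds G-quadruplexes, had folds of 6.11 (−log10 q 12.6) in HCT116 and 3.06 (3.97) in SW480, with summits at 653 and -204 bp. DDX60L had a fold of 5.99 (13.5) at -412 bp in HCT116. DDX41, which also has roles in splicing, had a fold of 4.58 (13.6) at -511 bp in HCT116. Neither had a SW480 summit within 1 kb, the nearest being 529606 bp from DDX60L and 63718 bp from DDX41. DDX60 (chr4:168216294-168325979), the paralogue of DDX60L, had no gene-end peak, but an HCT116 peak of fold 4.88 (10.4) lay inside the gene, 7365 bp from its end. The nearest SW480 summit was 684119 bp from DDX60. DHX58 (chr17:42101411-42112714), which encodes the LGP2 regulator of RIG-I signalling, was bound in neither line, with summits no nearer than 8072 and 83774 bp. Of its relatives outside the symbol rule, RIGI was bound in HCT116 alone (fold 5.69) and IFIH1 in both lines (4.73 and 3.74), in peaks also near an end of GCA.

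Genes for export, translation and decay were bound in both lines at 7 of 7, against 20.3% of all genes. DDX3X, which promotes translation of mRNAs with structured leaders, had folds of 10.3 (−log10 q 32.2) and 5.36 (22.4), 366 and 336 bp inside the gene. DDX39A, an export factor, had folds of 8.93 (33.1) and 3.86 (7.99). DHX29, which helps scanning ribosomes through structured leaders, had folds of 6.92 (23.2) and 2.63 (3.72), in the peaks it shares with MTREX, an RNA exosome cofactor on the opposite side of the same promoter region. DDX19A and DDX19B, which release export factors at the nuclear pore and lie near each other on chromosome 16, each had their own peak. Their folds were 6.60 and 5.20 in HCT116 and 2.93 and 4.01 in SW480, so the order within the pair was opposite in the lines. DHX34, of nonsense-mediated decay, had folds of 6.49 and 2.99, and DDX6, a decapping and translation repression factor, 5.20 and 3.81.

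Nuclear RNA processing genes were bound at 5 of 5 in HCT116 and 4 of 5 in SW480, against 44.0% and 22.1% of all genes. DHX9, which resolves RNA duplexes and RNA-DNA hybrids during transcription, had folds of 11.8 (−log10 q 40.1) and 3.85 (9.93), with summits 146 and 174 bp inside the gene. DDX5, a transcriptional coregulator and microRNA processing cofactor, had folds of 10.1 (60.3) and 3.44 (5.81), in peaks also near an end of CEP95, with summits at 75 and -395 bp. Its paralogue DDX17 was bound in HCT116 alone, with a fold of 5.85 (15.5) at -543 bp. A second HCT116 peak of DDX17 had nearly the same fold, 5.84 (14.7), with its summit 182 bp inside the gene. The nearest SW480 summit lay 1642 bp from an end of DDX17. DDX1, of the tRNA ligase complex, had folds of 6.06 and 3.34. DDX20, a component of the SMN complex that assembles spliceosomal ribonucleoproteins, had 6.18 and 2.29, shared with INKA2.

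Of the mitochondrial genes, DDX28, which helps assemble the mitochondrial ribosome, was bound in both lines with folds of 6.87 and 3.38. DHX30, of mitochondrial RNA granules, was bound in HCT116 alone with a fold of 6.01 (−log10 q 14.7) at -605 bp. Both lists also held a DHX30 peak deep inside the gene, of fold 5.56 at 22019 bp from an end in HCT116 and 2.4 at 21991 bp in SW480. Of 4 germline genes, 1 was bound in HCT116 and 0 in SW480, against 44.0% and 22.1% of all genes. With 4 genes these counts cannot be told from those shares. The bound gene was DDX25, with a fold of 5.97 in HCT116, in a peak that also lies near an end of PUS3. DDX4 (chr5:55738061-55817157), DDX43 (chr6:73394828-73417566) and DDX53 (chrX:22999960-23003589) were bound in neither line. Their nearest summits lay 25416, 5684 and 664095 bp away in HCT116 and 178271, 44393 and 664041 bp away in SW480.

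DDX11, a DNA helicase of sister chromatid cohesion, at chr12:31073860-31104799, was bound in neither line, with the nearest summits 217283 and 221210 bp away. DDX11 has near-identical copies elsewhere in the genome, and the part of read mapping in this count was not tested. Among the remaining genes DDX59 (7.32 and 3.33) and DHX40 (6.63 and 5.25) were bound in both lines and DHX57 (3.10) in HCT116 alone. DHX32 (chr10:125836337-125896485) was bound in neither, with summits no nearer than 12916 and 117012 bp. The 9 genes bound in neither line thus comprised 3 of the 4 germline genes, DDX60 and DHX58 of the sensing genes, and DDX11, DDX51, DHX16 and DHX32.

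The strongest peak lay at the 5′ gene end in all 40 members with a listed strand in HCT116, against 94.7% of all such bound genes, and in all 30 in SW480, against 95.3%. Summits lay to either side of the start. No member had its strongest summit between -100 and 50 bp of the 5′ gene end, where 4.12% of all bound genes in HCT116 and 1.61% in SW480 had theirs. The share at 51 to 300 bp inside the gene was 18 of 40 (45.0%) in HCT116 and 14 of 30 (46.7%) in SW480, against 34.1% and 32.2% of all bound genes. The share at -500 to -101 bp was 35.0% and 43.3%, against 31.5% and 30.1%. Over all bound genes with the strongest peak at the 5′ end, 56.6% of summits lay inside the gene in HCT116 and 56.3% in SW480, against 22 of 40 and 17 of 30 members. The nucleolar genes had 9 summits inside and 2 outside in HCT116 and 7 and 3 in SW480. The splicing genes had 6 and 2, and 4 and 1. Every other list with bound genes had more outside in HCT116. Export, translation and decay genes had 3 inside and 4 outside in both lines. Nuclear RNA processing genes had 2 and 3 in HCT116, and 1 and 3 in SW480. By family, DDX genes had 16 inside and 12 outside in HCT116, and 14 and 8 in SW480. DHX genes had 6 and 6, and 3 and 5.

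**Figure D3:**
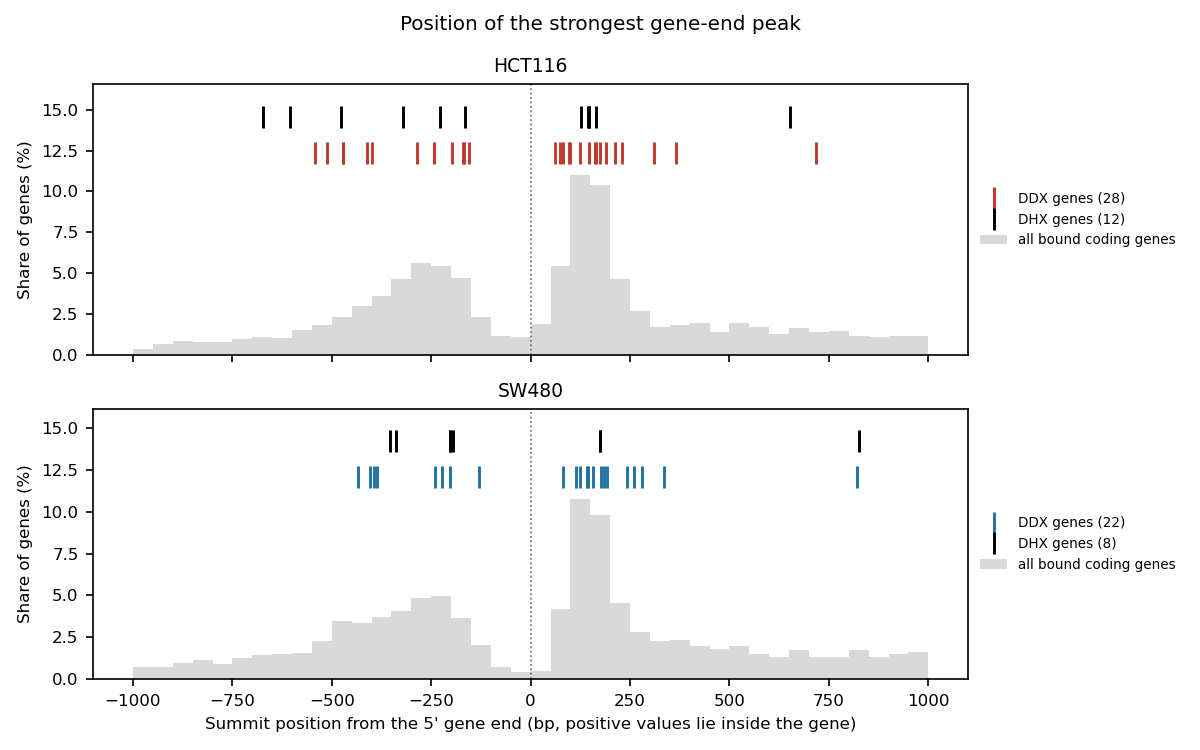
Position of the strongest gene-end summit in bp from the 5′ gene end (positive values inside the gene) for DDX and DHX genes (ticks) over the share of all bound coding genes per bin (grey, %), in HCT116 (top) and SW480 (bottom). In both lines the ticks fall into a group inside the gene and a group outside, with none between -100 and 50 bp. Few of all bound genes lie there either, at 4.12% in HCT116 and 1.61% in SW480.

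At some genes the lists held peaks on both sides of the start. At least 2 gene-end peaks were listed at 11 of 44 bound members (25.0%) in HCT116, against 19.6% of all bound genes, and at 14 of 32 (43.8%) in SW480, against 18.9%. Summits lay on both sides of a gene end at 10 members (22.7%) in HCT116, against 12.8%, and at 12 (37.5%) in SW480, against 14.2%. In SW480 the 12 pairs were 483 to 1311 bp apart, with a median of 585 bp. At 7 of the 12 (DDX39A, DDX42, DDX5, DDX50, DDX59, DHX35 and DHX36) a single HCT116 peak covered both SW480 summits. This was not counted over all genes, so it does not set the members apart. At DHX35 the SW480 peaks were alike in height, with a fold of 4.43 at -338 bp and 3.94 at 145 bp. At DDX42 they were unequal, with 16.3 at 144 bp and 2.95 at -417 bp. Peak width differs between the lists, and its part in how summits were split was not tested.

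The strongest summit also lay within 1 kb of another coding gene's end at 14 of 44 members (31.8%) in HCT116 and 10 of 32 (31.2%) in SW480, against 32.0% and 34.1% of all bound genes, shares close to the background. This held for 12 DDX and 2 DHX genes in HCT116 and for 9 and 1 in SW480. Besides the pairs named above, DDX24 shared its peak with IFI27L1, DDX28 with DUS2, DDX49 with COPE and DDX19B with AARS1 in both lines. DDX27 shared it with STAU1, DDX52 with SYNRG and DHX57 with MORN2 in HCT116.

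At the 32 genes bound in both lines the fold was higher in HCT116 at 29 (90.6%), close to the 92.4% of all genes bound in both. The fold follows from the number of ChIP fragments piled up at the summit and the caller's local background, and both were solved from the authors' fold and p-value. The SW480 value divided by the HCT116 value had a median of 0.475 for the fold, 0.840 for the pileup and 1.74 for the background, against 0.558, 0.897 and 1.71 over all genes bound in both lines. The pileup was higher in HCT116 at 20 genes (62.5%, against 59.9% of all genes bound in both), higher in SW480 at 11 and equal at DDX23. The background was higher in SW480 at 28 genes (87.5%, against 85.5%), all but DDX42, DDX47, DDX5 and DHX40. These directions were thus near those of all genes bound in both lines. Pileup and background are in fragments of each library and move with its depth, whose part in these ratios was not tested.

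DDX56 had 74 fragments over a background of 5.21 in HCT116 and 90 over 29.4 in SW480. Its pileup was thus higher in SW480 while its fold was lower. DDX3X likewise had 48 fragments over 3.75 in HCT116 and 62 over 10.7 in SW480. The HCT116 background of 3.75 was the lowest of the bound members and the same at DHX9 and DHX36. Whether it is a floor set by the caller was not tested. At DDX42 the pileup was 328 over 10.9 in HCT116 and 127 over 6.84 in SW480. DDX21 had 127 over 5.74 and 86 over 15.6, and DDX5 96 over 8.61 and 30 over 8.01. At DDX5 the background was nearly the same at both summits and the pileup differed, but these summits lay 470 bp apart. All such pairs of values compare the strongest peak of each line, which can lie at different positions. The strongest peaks of the lines overlapped at 31 of 32 genes (96.9%, against 90.4% of all genes bound in both), the exception being DDX52, with a median distance between summits of 47 bp (65 bp over all genes).

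**Figure D4:**
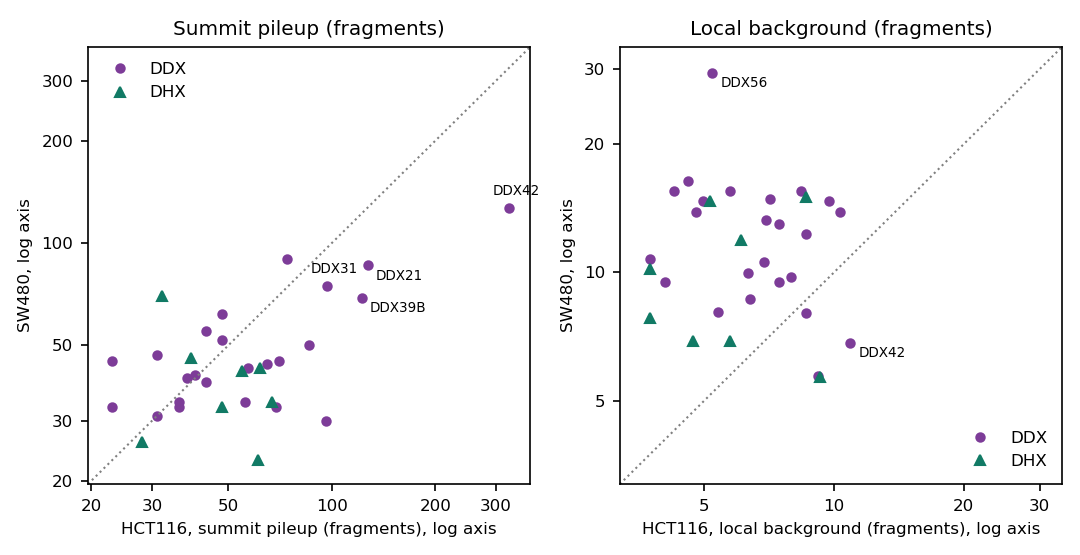
Summit pileup (left) and local background (right), in fragments on log axes, in HCT116 (x) and SW480 (y) at the 32 genes bound in both lines, for DDX (circles) and DHX genes (triangles), with the line of equal values dotted. Pileups lie on both sides of the line (20 higher in HCT116 and 11 in SW480), whereas 28 backgrounds lie above it.

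Peaks inside the genes but over 1 kb from both ends were fewer and mostly lower. HCT116 had 28 in 21 members, with the highest fold at DDX6 (6.53, 1353 bp from an end), and SW480 had 9 in 8 members, with folds up to 3.34. The share of members with such a peak was 39.6% in HCT116, against 23.0% of all coding genes, and 15.1% in SW480, against 12.5%. The median gene length was 30.9 kb for the members and 24.2 kb for all coding genes, and its part in these shares was not tested. DDX10, a gene spanning chr11:108665069-108940927, held 3 of these in HCT116, the highest with a fold of 4.64, above its gene-end fold of 3.04. DDX6 likewise had a higher fold there than at its start in HCT116.

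Promoters of 48 of the 53 genes were matched by gene identifier and chromosome in the RefSeq table. Where several starts were listed, the one nearest to the 5′ gene end was used, and a listed start can lie far from that end. DDX18, DDX49, DDX52, DHX33 and DHX58 were the others. A promoter was called CpG-rich at a GC content of at least 50% and an observed to expected CpG ratio of at least 0.6 over 300 bases. This held for 43 of 48 members (89.6%) and 63.1% of the 15812 coding genes with a listed promoter. Of the CpG-rich members 38 (88.4%) were bound in HCT116 and 29 (67.4%) in SW480, against 63.2% and 33.0% of all genes with such a promoter. The share of bound members thus stood above that of genes of like promoter type, with no test. The other 5 members were DDX19B, DDX4, DDX60, DDX60L and DHX32, of which 2 were bound in HCT116 and 1 in SW480, against 17.7% and 8.45%. The DDX19B summits lay -471 and -435 bp from the 5′ gene end but -5481 and -5445 bp from the nearest listed start. The listed start of DDX4 lies inside the gene. At DDX19B and DDX4 the promoter type thus does not describe the end at which binding was counted. The CpG-rich members had a median GC content of 61.3%, below the 67.7% of all CpG-rich promoters.

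The ETS letters CCGGAAG, the core bound by ETS-family factors, were in 20 of 48 member promoters (41.7%), against 14.1% of all promoters and 19.9% of CpG-rich ones. Both strands were searched, and none of the 9 motifs contains another. The match nearest the start began at a median position of -29 from it, and 17 of 20 (85.0%) lay at -100 or beyond it towards the gene, against 75.3% of all genes with the letters. The 20 genes were DDX1, DDX5, DDX19A, DDX21, DDX27, DDX31, DDX39B, DDX42, DDX46, DDX47, DDX50, DDX56, DHX8, DHX16, DHX30, DHX34, DHX36, DHX37, DHX38 and DHX57. Of them 19 were bound in HCT116, all but DHX16, and 13 in SW480, against 76.1% and 41.4% of all genes with the letters. Of the 28 members without them 21 were bound in HCT116 and 17 in SW480, against 41.5% and 21.0%. The share bound in HCT116 was thus higher among members with the letters (19 of 20 against 21 of 28), as it was over all genes. In SW480 the share was close between members with and without them (13 of 20 against 17 of 28), unlike over all genes. These differences were not tested. A match describes the sequence and is not a binding site.

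The GC-box letters GGGCGG (SP) were in 27 member promoters (56.2%), against 58.3% of all and 79.4% of CpG-rich ones. The letters CCAAT (NF-Y) were in 22 (45.8%, against 36.4% and 35.2%), and the E-box CACGTG in 8 (16.7%, against 8.82% and 10.9%). The cAMP response letters TGACGTCA were in 5 (10.4%, against 2.56% and 3.59%), in DDX10, DDX19A, DDX28, DDX51 and DHX36. The NRF1 letters GCATGCGC were also in 5 (10.4%, against 4.28% and 6.16%), in DDX10, DDX11, DDX27, DDX41 and DHX9. The YY1 letters AAGATGGC were in 3 (6.25%, against 3.86% and 5.24%) and the palindrome CTCGCGAG in 0 (against 1.54% and 2.31%). TATAAA was in 2 (4.17%), below the 9.75% of all promoters and close to the 4.11% of CpG-rich ones. The ETS share stood farthest above the share of CpG-rich promoters in percentage points, and the GC-box share farthest below it.

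**Figure D5:**
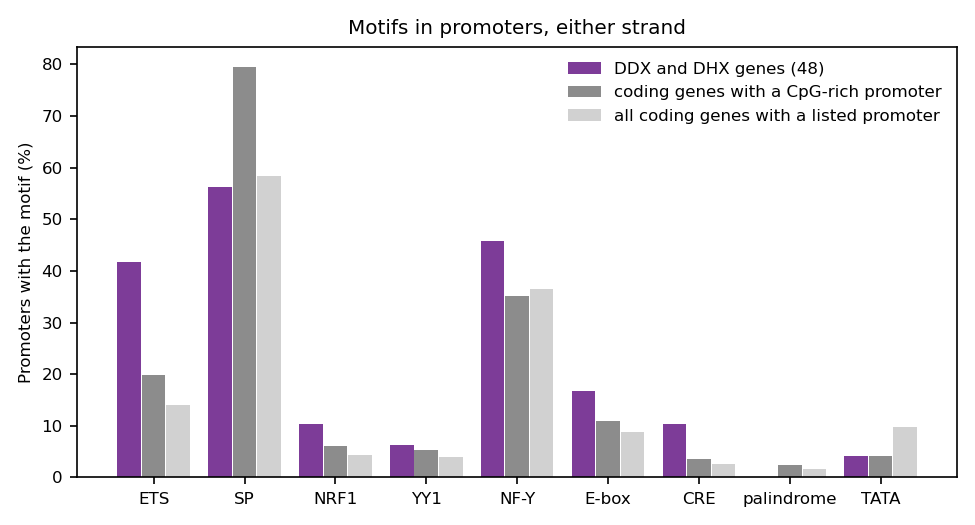
Share of promoters (%) that hold each of 9 motifs on either strand, for 48 DDX and DHX genes (purple), coding genes with a CpG-rich promoter (dark grey) and all coding genes with a listed promoter (light grey). The ETS bar of the helicase genes (41.7%) stands above both grey bars (19.9% and 14.1%), and their SP bar (56.2%) below that of CpG-rich promoters (79.4%).

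A list of 14 helicase genes of the same superfamily, with symbols outside the rule, gave similar shares. These genes were picked by name and not by a rule. Of them 11 of 14 were bound in HCT116 and 8 of 14 in SW480, against 44.0% and 22.1% of all genes. MTREX was counted on the peaks it shares with DHX29, so the list is not fully separate from the members. The translation initiation factor gene EIF4A1 had folds of 14.7 and 8.39, in peaks also near an end of SENP3, and its paralogue EIF4A2 had 9.04 and 6.89. Both values in SW480 exceeded those of every DDX and DHX gene except DDX42. SNRNP200, which unwinds the U4/U6 duplex in the spliceosome, had 10.5 and 4.58, and DICER1, the microRNA-processing nuclease, 9.05 and 3.13. EIF4A3, of the exon junction complex, was bound in HCT116 alone (4.15), as was YTHDC2 (4.42). DQX1, HFM1 and TDRD9 were bound in neither line.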

How the data were processed

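BRD8 ChIP-seq was analysed from 1 narrowPeak list per line, so peaks were not pooled. Input libraries were not used. By the submitters' processing notes the tools were Trimmomatic 0.33, Bowtie2 2.4.1, MACS2 and deepTools, with GRCh38. The versions noted for MACS2 and deepTools were unclear and are left out, and the handling of duplicate reads is not given in the sources used. The fold deposited by the authors is a ratio, ChIP pileup plus 1 over local background plus 1 at the peak summit. Their deposited −log10 p and −log10 q-values are for the same position, the deposited score is 10 times −log10 q for nearly all peaks, and the deposited summit offset gives its position in the region.

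From these, gene-end peaks were assigned with gene coordinates of the RefSeq GRCh38.p14 table, in Python 3.11.15 with pandas 2.3.3, numpy 2.4.6 and scipy 1.17.1. Pileup and background were solved by scanning pileups to 2999 with a relative tolerance of 0.001 on p. The scripts were tested on simulated data. No test between lines was made, as each had 1 ChIP library.

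Members and lists were chosen with earlier results of these data known. By rule, values were given for the 10 members of highest fold in each line, the members bound in SW480 alone or in neither line, the 5 of highest −log10 q bound in HCT116 alone, and the nucleolar, splicing and innate sensing lists. Alternatives changed the distance, threshold, peak choice, list length, sharing, gene end and lists. Counting any listed start as a gene end was added after seeing the data.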

Additional observations from a re-analysis of the deposited data

How the results depend on the processing

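Of 140 alternative values of the counts, 128 stayed within 1.5 times the value given. The 12 others concerned small lists or the count in SW480 alone, apart from 2 counts of DDX genes. With summits at most 500 bp from a gene end, 1 of 5 innate sensing genes was bound in HCT116, against 34.9% of all genes. At that distance 1 of 53 members was bound in SW480 alone, against 2.83%. With a −log10 q of at least 5, SW480 kept 5 of 16 DHX, 3 of 9 splicing and 0 of 5 innate sensing genes, against 14.5% of all genes. With equal numbers of peaks, 1 of 53 members was bound in SW480 alone, against 2.8% of all genes. Without peaks near another coding gene, HCT116 had 20 of 37 DDX genes bound and SW480 15, since fewer peaks enter. Over all genes the shares were then 31.1% and 15.0%. A wider innate sensing list of 10 genes had 8 bound in HCT116 and 5 in SW480, and a narrower one of 3 genes had 1 and 0. For these lists the shares over all genes stayed 44.0% and 22.1%. Taking the peak nearest to a gene end chose another peak at 5 members in HCT116 and 7 in SW480, and moved the fold by over 1.5 times at DDX59 (3.88) and DHX30 (3.83) in HCT116 and DDX3X (2.37) in SW480. No paired analysis was possible because each line has 1 ChIP library with no replicate number, and no library could be left out. Depth is unknown, so a missing peak in the shorter SW480 list does not show that binding is absent.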
